A study of Mus musculus with 12 samples.

Results

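Transcripts of 10 neutrophil genes were followed in bulk RNA sequencing libraries labelled as the mouse hepatoma line Hepa1-6, with liver given as the tissue. The genes were chosen by name: S100a8, S100a9, Cxcr2, Csf3r, Ltf, Mmp9, Mmp8, Retnlg, Camp and Ngp. All 10 were among the 21878 genes of the deposited table, and all 10 were among the 14330 that passed the filter on low counts and were tested. The 4 groups held 3 libraries each: cells treated with mIFNalpha (mouse interferon alpha), cells treated with an anti-PD-1 antibody, which blocks the inhibitory receptor PD-1, cells given both agents (the combination), and untreated cells. Hepa1-6 was derived from a mouse hepatoma. The labels name no dose, time, host or animal age, and do not tell whether the 3 replicates are separate animals or cultures. The p-values therefore measure the spread between these libraries, which may be technical. No genotype or further agent is named for any group.

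Neutrophils are short-lived phagocytes that form in the bone marrow under the control of granulocyte colony stimulating factor and reach tissue by following CXC chemokines. Their granules are filled in sequence during maturation: primary granules take up myeloperoxidase and serine proteases, secondary granules lactoferrin, cathelicidin and collagenase, and tertiary granules gelatinase. S100A8 and S100A9 pair as calprotectin, which is abundant in the cytosol of neutrophils and of monocytes. In tumours, neutrophils have been described both as killers of tumour cells and as suppressors of T cells. Several of the 10 genes are also active outside neutrophils, such as Csf3r in monocytes and Mmp9 in macrophages and tumour cells.

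Library totals ran between 31317989 and 38536732 counts. Levels are given as CPM, in which counts are scaled to a common library size with TMM factors, and, between genes, as the deposited FPKM, which divides by transcript length. A level of 3 counts corresponded to between 0.0786 and 0.102 CPM, depending on the library. Hepatoma markers (Afp, Alb, Apoa1, Apob, Ttr and Hnf4a) summed to between 13983 and 27263 CPM over the 12 libraries, led by Alb, which normal hepatocytes express as well. Afp, a fetal gene that is mostly silent in adult hepatocytes and active in hepatoma, was between 7770 and 11179 CPM with mIFNalpha, 6254 and 7476 CPM with anti-PD-1 and 5702 and 6920 CPM in the combination, against 9610 and 10865 CPM in untreated libraries. Ptprc, which encodes the leukocyte antigen CD45, was also measured in every library, at 21.2, 50.4 and 47.4 CPM with mIFNalpha, 63.9, 92.3 and 224 CPM with anti-PD-1 and 111, 109 and 114 CPM in the combination, against 31.4, 30.5 and 48.7 CPM in untreated libraries. A pair of libraries stood apart from the others of their groups for the neutrophil genes, mIFNalpha replicate 1 and anti-PD-1 replicate 3. Results that rest on them are given with and without them. Because they were picked by the values of these genes, counts from fits without both are not independent support. Leaving both out changed the share of all genes called from 14.8% to 10.7% with anti-PD-1. In the combination it changed from 12.6% to 29.2%.

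In mm10 with GENCODE M21, S100a8 was at chr3:90668978-90670035 on the plus strand and S100a9 at chr3:90692632-90695721 on the minus strand, 22.6 kb apart. Camp (chr9:109847379-109849617, minus), Ngp (chr9:110419747-110423012, plus) and Ltf (chr9:111019271-111042767, plus) lay within 1.195 Mb of chromosome 9. Mmp8 was elsewhere on that chromosome (chr9:7558456-7568485, plus). The others were Cxcr2 (chr1:74153989-74161246, plus), Csf3r (chr4:126024550-126044440, plus), Mmp9 (chr2:164940780-164955850, plus) and Retnlg (chr16:48872621-48874496, plus). No other annotated gene overlapped any of the 10.

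The 200 bases before the RefSeq start (GRCm38.p6) are shown for the 2 pairs whose members moved most closely together across libraries, S100a8 with S100a9 and Camp with Ngp. Each is written 5′ to 3′ on the strand of its gene, and capitals mark matches, on either strand, to AGGAAGT (the core read by ETS factors such as PU.1), to TTGCNNAA (a C/EBP type motif) or to TATAAA (the TATA box). The windows were chr3:90668871-90669070 (plus), chr3:90695722-90695921 (minus), chr9:109849457-109849656 (minus) and chr9:110419608-110419807 (plus). For S100a8, Camp and Ngp, GENCODE M21 places the 5′ end further upstream than the RefSeq start used here.
S100a8: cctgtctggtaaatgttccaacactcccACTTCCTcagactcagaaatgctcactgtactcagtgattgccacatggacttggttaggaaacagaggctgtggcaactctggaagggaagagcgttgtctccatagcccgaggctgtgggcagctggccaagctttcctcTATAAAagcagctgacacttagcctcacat
S100a9: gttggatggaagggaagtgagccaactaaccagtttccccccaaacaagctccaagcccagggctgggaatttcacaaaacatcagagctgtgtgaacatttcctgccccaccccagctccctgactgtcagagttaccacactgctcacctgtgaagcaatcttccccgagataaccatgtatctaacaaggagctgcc
Camp: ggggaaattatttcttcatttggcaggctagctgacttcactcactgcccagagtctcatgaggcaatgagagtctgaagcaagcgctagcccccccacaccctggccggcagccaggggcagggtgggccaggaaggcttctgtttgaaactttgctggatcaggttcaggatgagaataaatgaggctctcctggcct
Ngp: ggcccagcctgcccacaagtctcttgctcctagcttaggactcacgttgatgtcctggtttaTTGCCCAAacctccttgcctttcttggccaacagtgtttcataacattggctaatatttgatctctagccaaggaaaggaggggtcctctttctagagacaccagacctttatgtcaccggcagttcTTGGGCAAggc
S100a8 held the ETS motif on the reverse strand, 172 to 166 bases before its start, and TATAAA 30 to 25 bases before it. Ngp held TTGCNNAA at 138 to 131 and at 11 to 4 bases before its start. These letters did not occur in the S100a9 and Camp windows. Of the 9 genes with a promoter in the table, TTGCNNAA occurred in 3 (Ltf, Mmp8 and Ngp), against 7.5% of all 32817 promoters. AGGAAGT occurred in 1 of the 9 and in 6.3% of all promoters, and TATAAA in 1 of the 9 and in 10% of all. These matches are descriptions of letters.

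The calprotectin genes were the most abundant of the 10 per length in every group and rose in both groups given anti-PD-1. S100a8, which encodes the partner that forms calprotectin with S100A9, had 21.6, 6.75 and 10.1 CPM in mIFNalpha libraries, 26.4, 26.3 and 49.5 CPM in anti-PD-1 libraries and 34.8, 50.6 and 25.7 CPM in combination libraries, against 5.22, 5.96 and 9.22 CPM in untreated libraries. All 6 libraries with anti-PD-1 were above all 6 without it, while the mIFNalpha and untreated libraries overlapped. S100a8 rose in anti-PD-1 libraries by 2.32 ± 0.46 on the log2 scale (SE; adjusted p = 0.0203) and in the combination by 2.44 ± 0.46 (adjusted p = 0.0165, edgeR quasi-likelihood test, Benjamini-Hochberg over all genes tested). In mIFNalpha libraries the log2 difference was 0.91 ± 0.44 (adjusted p = 0.885). In bulk RNA, more cells of a type and more RNA per cell cannot be told apart.

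S100a9 had 30.2, 13.1 and 14.7 CPM in mIFNalpha libraries, 40.5, 39.2 and 76.5 CPM in anti-PD-1 libraries and 57.6, 79.6 and 38.4 CPM in combination libraries, against 10.6, 12.8 and 15.8 CPM in untreated libraries. The order of libraries was close to that of S100a8, with mIFNalpha replicate 1 and anti-PD-1 replicate 3 highest in their groups. S100a9 rose by 1.99 ± 0.39 on the log2 scale with anti-PD-1 (adjusted p = 0.0203) and by 2.16 ± 0.40 in the combination (adjusted p = 0.0159), and its log2 difference with mIFNalpha was 0.56 ± 0.38 (adjusted p = 0.885). Per length, S100a8 averaged 43.9, 115 and 134 FPKM in the mIFNalpha, anti-PD-1 and combination groups and 22.6 FPKM in the untreated group. S100a9 averaged 28.4, 76.3 and 92.2 FPKM in those treated groups and 19.2 FPKM in the untreated group. Retnlg came next in every group, at 5.62, 6.81 and 12.3 FPKM in the treated groups and 2.09 FPKM in the untreated one. The order of the other 7 differed between groups. In the combination, Camp lay between 5.17 and 7.39 FPKM, above Csf3r at 3.55 to 3.92 FPKM, which was above Ltf at 2.30 to 3.41 FPKM, and the libraries of these 3 genes did not overlap. Retnlg, Ngp and Mmp9 overlapped with each other there.

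Both receptor genes rose in the groups given anti-PD-1. Cxcr2, the receptor for neutrophil-attracting CXC chemokines, had 3.30, 2.86 and 2.93 CPM in mIFNalpha libraries, 4.56, 6.46 and 8.44 CPM in anti-PD-1 libraries and 4.96, 7.59 and 5.65 CPM in combination libraries, against 1.56, 1.39 and 2.29 CPM in untreated libraries. The groups formed a stair: each mIFNalpha library was above each untreated one, and each library with anti-PD-1 was above each mIFNalpha one. Cxcr2 rose by 1.89 ± 0.30 on the log2 scale with anti-PD-1 (adjusted p = 0.0176) and by 1.79 ± 0.30 in the combination (adjusted p = 0.0126). With mIFNalpha the log2 difference was 0.79 ± 0.29, with an unadjusted p of 0.0202 that did not survive adjustment over all genes in the edgeR test (adjusted p = 0.866).

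Csf3r, the receptor for granulocyte colony stimulating factor, had 12, 17.2 and 16.3 CPM in mIFNalpha libraries, 19.9, 26.5 and 61.8 CPM in anti-PD-1 libraries and 32.4, 37.1 and 32.9 CPM in combination libraries, against 11.2, 7.68 and 15.5 CPM in untreated libraries. The combination libraries were close together, while anti-PD-1 replicate 3 was 2.67 times the mean of the other anti-PD-1 libraries. Csf3r rose by 1.65 ± 0.39 on the log2 scale with anti-PD-1 (adjusted p = 0.0247) and by 1.57 ± 0.39 in the combination (adjusted p = 0.0305). In mIFNalpha libraries it differed from untreated by 0.40 ± 0.38 (adjusted p = 0.904).

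Among the granule genes, lactoferrin rose in the combination. Collagenase, cathelicidin and Ngp did not pass in any comparison in the edgeR fit to all 12 libraries. DESeq2 called all 10 genes in the combination, beside 16.4% of all genes. Ltf, which encodes the iron-binding lactoferrin of secondary granules, had 3.48, 1.72 and 1.57 CPM in mIFNalpha libraries, 5.32, 4.21 and 6.30 CPM in anti-PD-1 libraries and 10.6, 12.2 and 8.16 CPM in combination libraries, against 0.973, 2.78 and 2.96 CPM in untreated libraries. The combination libraries were above all others, the anti-PD-1 libraries came next, and mIFNalpha and untreated libraries overlapped. Ltf rose in the combination by 2.20 ± 0.43 on the log2 scale (adjusted p = 0.0177), while its log2 difference was 1.24 ± 0.42 with anti-PD-1 (adjusted p = 0.0710) and 0.01 ± 0.42 with mIFNalpha (adjusted p = 0.998).

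Camp encodes the cathelicidin antimicrobial peptide precursor and was at low counts. It had 78, 4 and 5 counts in mIFNalpha libraries, 57, 43 and 70 in anti-PD-1 libraries and 168, 143 and 111 in combination libraries, against 3, 23 and 21 in untreated libraries. The combination libraries were above all others, and 3 of the mIFNalpha and untreated libraries were at 5 counts or fewer. Its log2 differences were 0.76 ± 1.0 with mIFNalpha (adjusted p = 0.920), 1.73 ± 1.0 with anti-PD-1 (adjusted p = 0.241) and 2.97 ± 1.02 in the combination (adjusted p = 0.0759).

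Ngp, the neutrophilic granule protein of the mouse, had 10.1, 0.858 and 0.943 CPM in mIFNalpha libraries, 5.18, 5.68 and 10.4 CPM in anti-PD-1 libraries and 14.5, 15.9 and 8.82 CPM in combination libraries, against 0.259, 2.27 and 2.66 CPM in untreated libraries. As for Camp, mIFNalpha replicate 1 reached the range of the anti-PD-1 libraries, while the other mIFNalpha libraries were within the untreated range. Its log2 differences were 1.19 ± 0.95 with mIFNalpha (adjusted p = 0.885), 2.03 ± 0.96 with anti-PD-1 (adjusted p = 0.164) and 2.92 ± 0.99 in the combination (adjusted p = 0.0742).

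Mmp8, the neutrophil collagenase, had 6.42, 1.72 and 0.943 CPM in mIFNalpha libraries, 5.55, 1.19 and 9.68 CPM in anti-PD-1 libraries and 4.57, 4.88 and 2.29 CPM in combination libraries, against 0.389, 0.542 and 1.41 CPM in untreated libraries. It was the gene of the 10 with anti-PD-1 libraries inside the untreated range, through anti-PD-1 replicate 2. Its log2 differences were 1.95 ± 0.87 with mIFNalpha (adjusted p = 0.885), 2.80 ± 0.88 with anti-PD-1 (adjusted p = 0.0555) and 2.32 ± 0.87 in the combination (adjusted p = 0.0985).

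Mmp9 and Retnlg rose in the combination. Mmp9, the gelatinase of tertiary granules, had 6.12, 17.0 and 15.2 CPM in mIFNalpha libraries, 23.3, 13.0 and 13.6 CPM in anti-PD-1 libraries and 23.1, 48.6 and 33.9 CPM in combination libraries, against 5.61, 3.93 and 10.2 CPM in untreated libraries. For Mmp9, mIFNalpha replicate 1 was lowest in its group, as for Csf3r, and anti-PD-1 replicate 3 was not highest in its own, unlike the other 9 genes. Mmp9 rose in the combination by 2.42 ± 0.47 on the log2 scale (adjusted p = 0.0177), with log2 differences of 1.34 ± 0.46 for anti-PD-1 (adjusted p = 0.0703) and 0.96 ± 0.45 for mIFNalpha (adjusted p = 0.885).

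Retnlg, a resistin-like secreted protein of mouse neutrophils, had 5.76, 1.77 and 1.52 CPM in mIFNalpha libraries, 3.54, 2.11 and 6.07 CPM in anti-PD-1 libraries and 4.82, 8.67 and 4.58 CPM in combination libraries, against 1.0, 1.18 and 1.28 CPM in untreated libraries. Every treated library was above every untreated one, though mIFNalpha replicates 2 and 3 were close to the untreated range. Retnlg rose in the combination by 2.37 ± 0.56 on the log2 scale (adjusted p = 0.0275), and its log2 difference was 1.75 ± 0.56 with anti-PD-1 (adjusted p = 0.0563) and 1.38 ± 0.55 with mIFNalpha (adjusted p = 0.881).

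**Figure D1:**
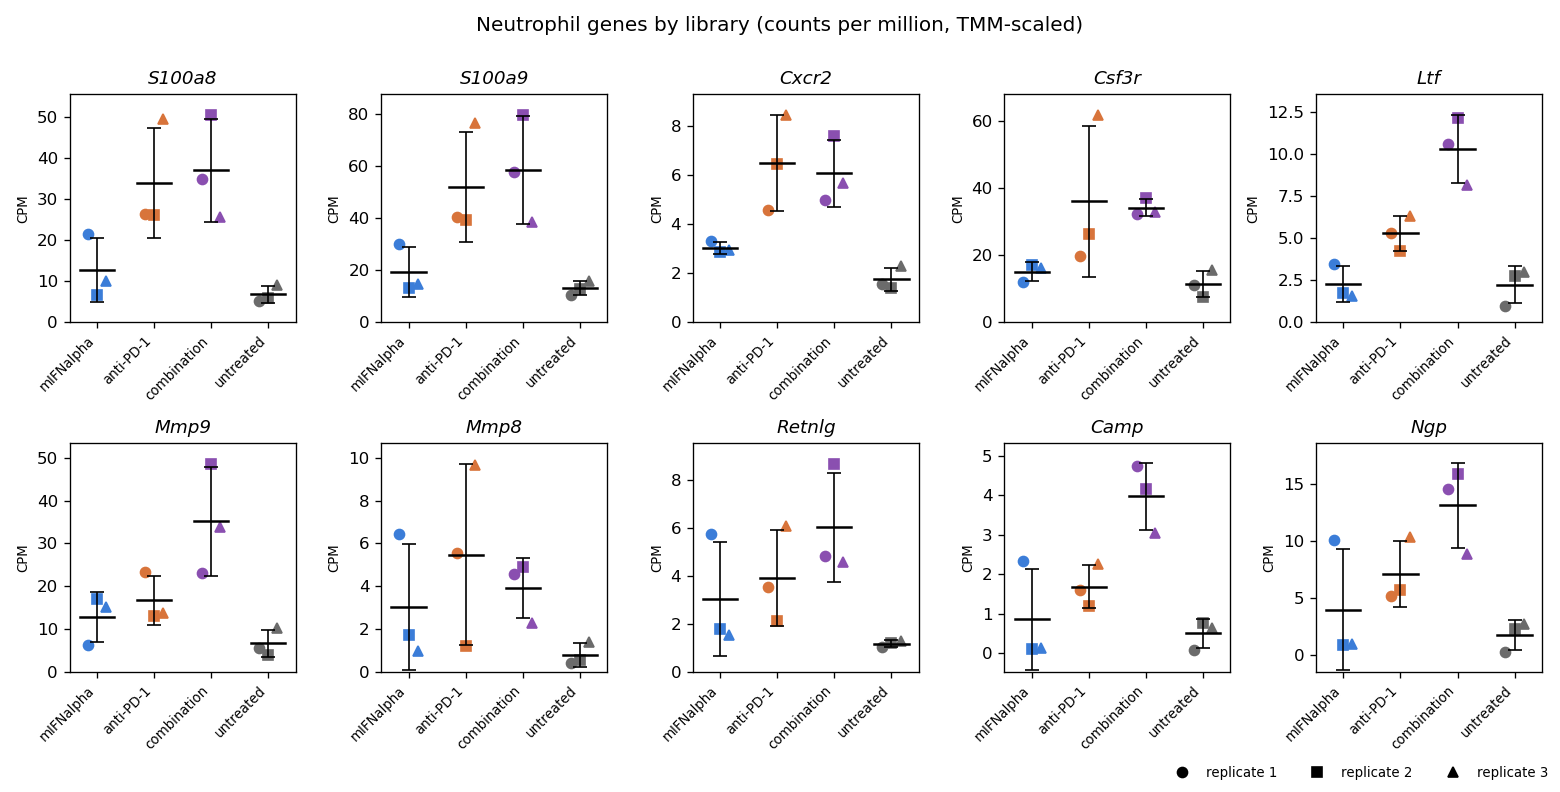
Level of each neutrophil gene in CPM (vertical axis) in the 12 libraries, by group (horizontal axis). Symbols are libraries, shaped by replicate number, and black lines with bars are means ± SD of 3 libraries. For S100a9, libraries with anti-PD-1 span 38.4 to 79.6 CPM and the others 10.6 to 30.2 CPM.

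Counted together, 4 of the 10 genes rose with anti-PD-1 (S100a8, S100a9, Cxcr2 and Csf3r), where 14.8% of all genes tested were called and 9.76% rose. In the combination 7 of 10 rose, the same 4 genes with Ltf, Mmp9 and Retnlg, where 12.6% of all genes were called and 7.58% rose. With mIFNalpha 0 of 10 passed, as did 0% of all genes in the edgeR test, although 801 genes had an unadjusted p under 0.05 and DESeq2 called 37 genes, 0 of them among the 10. The median log2 difference of the 10 genes was 0.85 with mIFNalpha, 1.82 with anti-PD-1 and 2.35 in the combination, beside medians over all genes of 0.01, -0.01 and -0.01. All 10 were above untreated on average in each of these comparisons. Without mIFNalpha replicate 1, the mIFNalpha median was 0.41 and 7 of 10 genes were above untreated. Without untreated replicate 1, 9 of 10 were. Libraries did not overlap with untreated ones for 2 of 10 genes with mIFNalpha (10.2% of all genes, 4.95% higher), for 9 of 10 with anti-PD-1 (36% of all genes, 17.5% higher) and for 10 of 10 in the combination (49.5% of all genes, 24.7% higher).

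With anti-PD-1 and in the combination, all 10 genes stayed above untreated whichever library was left out, but the calls did not hold. Without untreated replicate 1 or 2, 0 of 10 genes passed with anti-PD-1 (0.0344% and 0.0412% of all genes called). In the combination 0 of 10 passed as well (0.557% and 0.797% of all genes). Without anti-PD-1 replicate 3, 1 of 10 passed with anti-PD-1 (Cxcr2), beside 2.26% of all genes. Without anti-PD-1 replicate 2 or untreated replicate 3, 6 of 10 passed with anti-PD-1 (17.8% and 18.6% of all genes). The combination count was 0 without combination replicate 2 or 3 (0.983% and 0.227% of all genes). It was 4 without combination replicate 1 (1.43% of all genes). Without mIFNalpha replicate 1, 9 of 10 passed in each comparison (20.9% and 17.8% of all genes). Without mIFNalpha replicate 1 and anti-PD-1 replicate 3 together, 5 of 10 passed with anti-PD-1 (10.7% of all genes). In the combination 10 of 10 then passed (29.2% of all genes). The share called over all genes thus also changed from fit to fit. Over the 12 fits that each lacked 1 library, the adjusted p of S100a9 (edgeR) ranged between 0.0125 and 0.0960 with anti-PD-1 and between 0.00500 and 0.0805 in the combination, while its log2 difference stayed between 1.62 and 2.16 and between 1.87 and 2.39. In a fit to the anti-PD-1 and untreated libraries alone, 0 of 10 passed (0% of all genes). In a fit to the combination and untreated libraries alone, 10 of 10 passed (27.2% of all genes).

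**Figure D2:**
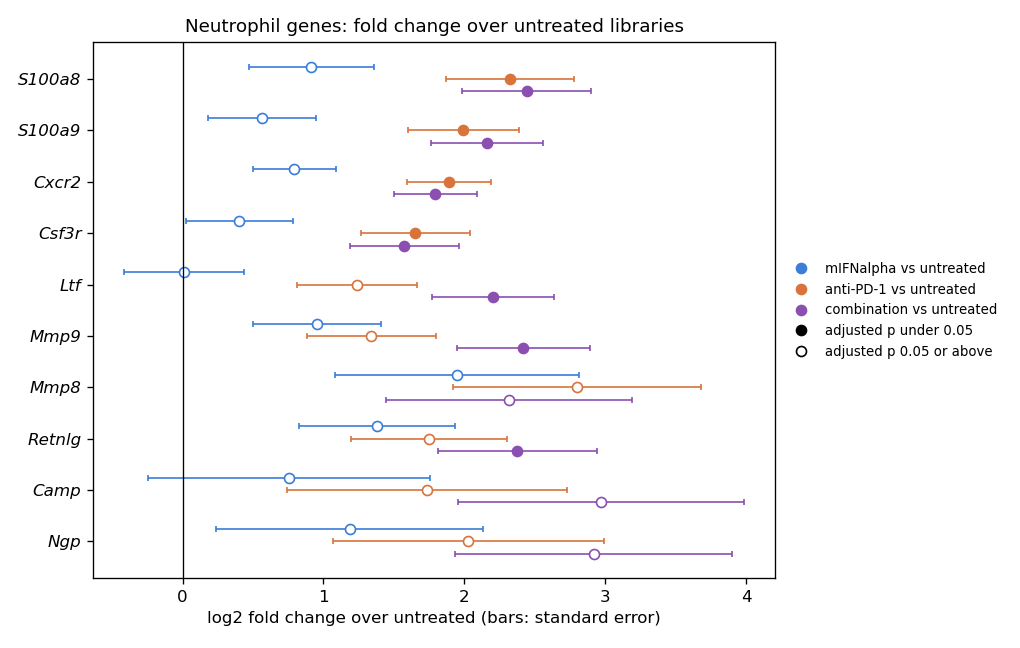
Log2 fold change over untreated libraries (horizontal axis, with standard errors) of each gene (vertical axis) for mIFNalpha, anti-PD-1 and the combination. Filled points have an adjusted p under 0.05 (edgeR): 0 for mIFNalpha, 4 for anti-PD-1 and 7 for the combination, and all points lie at or right of 0.

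The library mIFNalpha replicate 1 was highest of its group for 8 of the 10 genes and lowest for Csf3r and Mmp9. Its level over the mean of the other mIFNalpha libraries was 19.1-fold for Camp, 11.2-fold for Ngp, 4.83-fold for Mmp8, 3.50-fold for Retnlg, 2.56-fold for S100a8 and 2.17-fold for S100a9. The same ratio was 41.4 for Chil3 (a chitinase-like protein of granulocytes and macrophages), 12.5 for the neutrophil surface antigen gene Ly6g and 9.13 for Mpo, but 0.434 for Ptprc and 0.392 for Lyz2 (lysozyme, high in macrophages). Several granule genes were thus high in a library whose general leukocyte marker was low. This did not hold for all granule genes, as the ratio of Mmp9 was 0.381. Without this library the mIFNalpha log2 differences of Ltf, Camp and Ngp were below 0, at -0.44, -2.01 and -0.94. Adult hepatocyte markers (Cyp2e1, Cps1 and 8 others) summed to 1385 CPM in this library and to 310 and 279 CPM in the other mIFNalpha libraries, and their part in the result was not tested.

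Anti-PD-1 replicate 3 was highest of its group for 9 of the 10 genes, with Mmp9 the exception. Here the leukocyte markers were high as well: the ratio to the mean of the other anti-PD-1 libraries was 2.86 for Ptprc and 5.88 for Lyz2, against 1.92 for S100a9, 1.62 for Camp and 1.0 for Ly6g. The adult hepatocyte markers summed to 2208 CPM in it, the highest of the 12 libraries, and their part in the result was not tested.

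**Figure D3:**
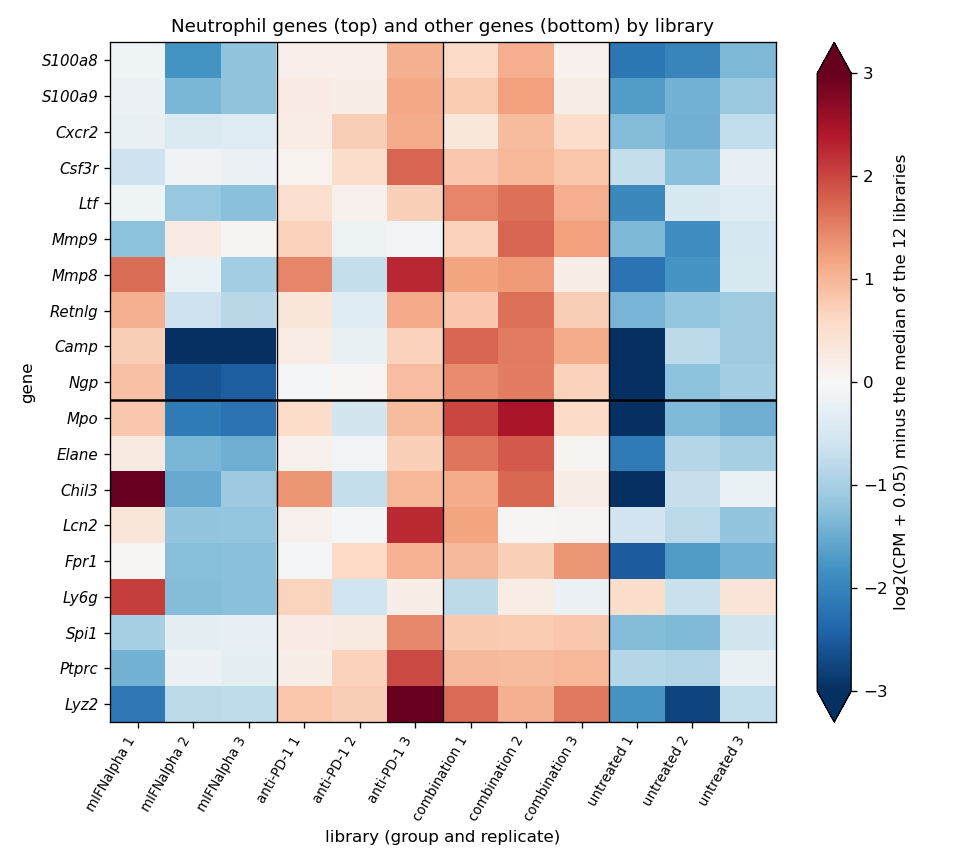
Level of each gene (rows) in each of the 12 libraries (columns), as log2(CPM + 0.05) minus the median of the 12 libraries, with the 10 neutrophil genes above the line and other genes below it. In mIFNalpha replicate 1, Camp, Ngp, Ly6g and Chil3 are high beside the other mIFNalpha libraries, while Ptprc and Lyz2 are low.

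Ratios within a library showed which genes kept step. Per 1000 S100a9 counts, S100a8 had between 467 and 715 counts over the 12 libraries, a 1.53-fold range, with group means of 639 in mIFNalpha, 656 in anti-PD-1, 636 in combination and 514 in untreated libraries. Ngp ranged 13.7-fold, between 24.4 and 333 counts per 1000 S100a9 counts, with group means of 154, 136 and 227 in the treated groups in that order and 123 in untreated libraries. Mmp9 ranged 7.28-fold, between 178 and 1294, and Csf3r 3.30-fold, between 397 and 1307. Ngp, Mmp9 and Csf3r thus varied against S100a9 between libraries more than S100a8 did.

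**Figure D4:**
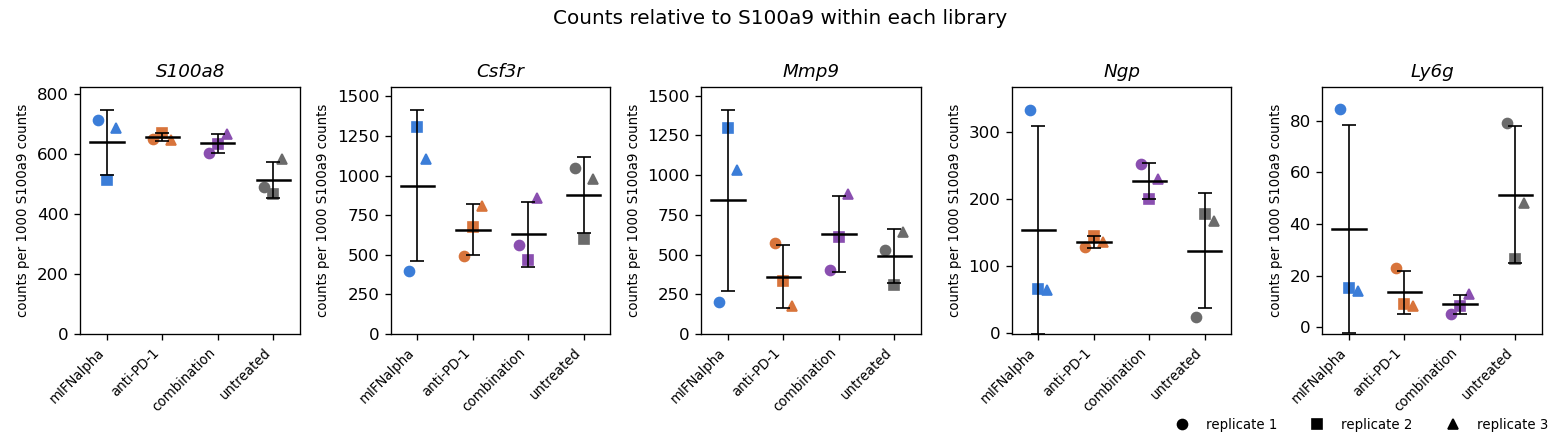
Counts of 5 genes per 1000 S100a9 counts in the same library (vertical axis), by group (horizontal axis). Symbols are libraries, shaped by replicate number, and black lines with bars are means ± SD of 3 libraries. S100a8 stays between 467 and 715, while Ngp spans 24.4 to 333 and Ly6g 5.39 to 84.5.

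Across the 12 libraries the 45 pairs of these genes had Pearson correlations of log2 CPM between 0.46 and 0.99, with a median of 0.83. This describes libraries that share their depth and their group differences. S100a8 and S100a9 were at 0.99, and at 0.97 with the group means taken off. Camp and Ngp were at 0.97 both ways. Ltf was at 0.95 with Camp and 0.94 with Ngp. Mmp9 with Camp was lowest, at 0.46, and with group means taken off Mmp9 was below 0 with 7 of the other 9 genes.

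Ly6g, the antigen by which mouse neutrophils are commonly sorted, did not follow the 10 genes. It had 2.55, 0.200 and 0.210 CPM in mIFNalpha libraries, 0.934, 0.360 and 0.649 CPM in anti-PD-1 libraries and 0.310, 0.669 and 0.496 CPM in combination libraries, against 0.843, 0.338 and 0.764 CPM in untreated libraries. All groups overlapped, and outside mIFNalpha replicate 1 no library was above 0.934 CPM. Its log2 difference was -0.00 ± 0.87 with anti-PD-1 (adjusted p = 0.998) and -0.40 ± 0.89 in the combination (adjusted p = 0.788). Per 1000 S100a9 counts, Ly6g averaged 38.0, 13.6 and 8.90 in the mIFNalpha, anti-PD-1 and combination groups and 51.4 in the untreated group. Ly6g belongs to a family of similar genes, and how reads with several matches were counted is not given in the sources used here.

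Other neutrophil genes were read from lists of their stages. Of the primary granule and precursor genes, 9 were listed and 6 tested. In the combination 4 rose: Mpo (myeloperoxidase) by 3.92 ± 1.03 on the log2 scale (adjusted p = 0.0362), Elane (neutrophil elastase) by 2.80 ± 0.69 (adjusted p = 0.0303), the transcriptional repressor gene Gfi1 by 2.29 ± 0.67 (adjusted p = 0.0478) and Ctsg (cathepsin G), which had 27, 42 and 13 counts in combination libraries, against 0, 0 and 1 in untreated libraries. With anti-PD-1 2 rose, Gfi1 by 2.40 ± 0.67 (adjusted p = 0.0381) and Ctsg, with 21, 10 and 15 counts in anti-PD-1 libraries (adjusted p = 0.0485). Mpo had 185, 247 and 69 counts in combination libraries, against 1, 14 and 14 in untreated libraries. Prtn3 (proteinase 3) had log2 differences of -0.79 with mIFNalpha, -0.58 with anti-PD-1 and -0.40 in the combination and did not pass. Without anti-PD-1 replicate 3, 0 of this list rose with anti-PD-1, and without mIFNalpha replicate 1 as well, 1 rose with anti-PD-1 and 6 in the combination. Over fits lacking 1 library, between 0 and 3 rose with anti-PD-1 and between 0 and 6 in the combination. The filter on low counts was applied anew in each fit, here and for the other lists. Listed genes beyond the 6 could thus be tested and counted in fits lacking libraries.

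Of 10 other secondary and tertiary granule genes, 2 rose with anti-PD-1 and 2 in the combination. These were Adam8, a metalloprotease (2.65 ± 0.50 and 1.69 ± 0.48 on the log2 scale, adjusted p = 0.0198 and 0.0461), and Serpinb1a, an inhibitor of neutrophil serine proteases (1.93 ± 0.42 and 2.17 ± 0.42, adjusted p = 0.0213 and 0.0177). The list's median log2 difference was 1.77 with anti-PD-1 and 1.65 in the combination. Of 17 other mature neutrophil genes tested of 21 listed, 11 rose with anti-PD-1 and 9 in the combination, with median log2 differences of 1.91 and 1.59. On average 14 of these 17 were higher and 3 lower with anti-PD-1, and 15 were higher and 2 lower in the combination. With anti-PD-1 the smallest p-values belonged to Clec4e (a receptor for damaged cells and mycobacterial glycolipid, 2.96 ± 0.55 log2), Acod1 (which makes itaconate, 2.83 ± 0.55), Fpr1 (a formyl peptide receptor, 2.5 ± 0.48) and Il1r2 (a decoy interleukin-1 receptor, 1.80 ± 0.35). In the combination they belonged to Fpr1 (2.94 ± 0.49), Fpr2 (3.21 ± 0.60), Acod1 (2.57 ± 0.54) and Clec4e (2.53 ± 0.54). Clec4e, Acod1 and the Fpr genes are also expressed by macrophages. Over fits lacking 1 library, between 0 and 12 of the mature genes and between 0 and 5 of the secondary and tertiary granule genes rose in each of these comparisons. Without anti-PD-1 replicate 3, 4 mature genes rose with anti-PD-1. Without that library and mIFNalpha replicate 1, 7 of the secondary and tertiary granule genes rose in the combination.

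Ligands that draw or expand neutrophils were called in both directions. Of 14 listed, 10 were tested, and by edgeR 1 rose and 1 fell with anti-PD-1 and in the combination alike. Over all genes, 14.8% were called with anti-PD-1 (9.76% rose) and 12.6% in the combination (7.58% rose). On average 8 of the 10 were higher with anti-PD-1 (median log2 difference 0.59) and 7 in the combination (0.18). DESeq2, run without the filter on low counts, called 3 as risen with anti-PD-1 and 1 in the combination. It called 18.2% and 16.4% of all genes there, in either direction. Tnf, the inflammatory cytokine, rose by 1.69 ± 0.46 on the log2 scale with anti-PD-1 (adjusted p = 0.0350) and by 2.11 ± 0.46 in the combination (adjusted p = 0.0231). Cxcl5, a ligand of CXCR2, had 17.2, 19.2 and 20.5 CPM in mIFNalpha libraries, 19.4, 15.7 and 18.1 CPM in anti-PD-1 libraries and 15.8, 16.5 and 14.6 CPM in combination libraries, against 28.1, 27.3 and 38.1 CPM in untreated libraries. All treated libraries were below all untreated ones. Cxcl5 fell by 0.81 ± 0.15 on the log2 scale with anti-PD-1 (adjusted p = 0.0191) and by 1.0 ± 0.15 in the combination (adjusted p = 0.0096). With mIFNalpha its log2 difference was -0.72 ± 0.15 (adjusted p = 0.749). Without anti-PD-1 replicate 3, 0 of these ligands rose with anti-PD-1. Csf3, the ligand of the Csf3r product, had 0, 0 and 0 counts in mIFNalpha libraries, 2, 5 and 7 in anti-PD-1 libraries and 2, 0 and 1 in combination libraries, against 2, 0 and 0 in untreated libraries, and did not pass the filter.

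Of 8 receptors for S100A8 and S100A9 and inhibitors of gelatinase, 0 rose with anti-PD-1 and 1 rose in the combination, Timp2 (an inhibitor of metalloproteases), by 0.48 ± 0.14 on the log2 scale (adjusted p = 0.0457). All 6 subunits of the phagocyte oxidase, which makes superoxide in neutrophils and macrophages alike, rose with anti-PD-1 and in the combination, with list medians of 2.09 and 1.86 log2. Examples were Ncf4 (2.01 ± 0.37 with anti-PD-1 and 1.91 ± 0.37 in the combination, adjusted p = 0.0191 and 0.0177) and Ncf1 (2.35 ± 0.52 and 2.29 ± 0.52, adjusted p = 0.0222 and 0.0254). Of 10 leukocyte integrin adhesion and signalling genes, 10 rose with anti-PD-1 and 9 in the combination. Spi1, which encodes the myeloid factor PU.1, rose by 1.78 ± 0.34 with anti-PD-1 and 1.80 ± 0.34 in the combination on the log2 scale (adjusted p = 0.0198 and 0.0169). Without anti-PD-1 replicate 3, 2 of 6 oxidase genes and 1 of 10 adhesion genes rose with anti-PD-1. Over fits lacking 1 library, the oxidase count ran between 0 and 6 and the adhesion count between 0 and 10, with anti-PD-1 and in the combination alike.

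Markers of several other leukocytes also rose in the groups given anti-PD-1. The 10 neutrophil genes summed to between 63.1 and 101 CPM in mIFNalpha, 126 and 245 in anti-PD-1 and 163 and 269 in combination libraries, against 36.9 and 62.0 in untreated libraries. The 15 macrophage and monocyte markers summed to between 438 and 730 CPM in mIFNalpha, 1203 and 4858 in anti-PD-1 and 1599 and 1997 in combination libraries, against 392 and 686 in untreated libraries. Of these 15, 12 rose with anti-PD-1 and 7 in the combination. T cell markers rose in 9 of 9 and 4 of 9 cases, B cell markers in 6 and 4 of 7, mast cell and basophil markers in 5 and 5 of 6, eosinophil markers in 2 and 2 of 5 and platelet markers in 1 and 0 of 3. Without anti-PD-1 replicate 3, 1 of 15 macrophage, 1 of 9 T cell, 3 of 7 B cell and 2 of 6 mast cell markers rose with anti-PD-1. In the combination, fits lacking 1 library gave between 0 and 12 macrophage, 0 and 9 T cell, 1 and 6 B cell and 2 and 5 mast cell markers. The part of these cell types in the result was not tested, and 0 of their markers were at 0 counts in every library of the anti-PD-1 or combination group. Adult hepatocyte (10), erythroid (6) and epithelial (7) markers passed in 0 cases by edgeR, while 2 of 6 hepatoma markers fell in each comparison. Hepatocyte markers were still higher on average in 10 of 10 cases in both, with median log2 differences of 1.77 and 1.31. Erythroid markers were higher in 6 and 1 of 6 cases (medians 1.01 and -0.09). Epithelial markers were higher in 4 and 6 of 7 (medians 0.49 and 0.41). DESeq2 called 2 and 1 hepatocyte and 2 and 0 epithelial markers as risen. With mIFNalpha 0 genes passed in any of the lists by edgeR. Among mIFNalpha libraries the marker sums did not all move with the 10 genes. In replicate 1 the 10 genes (101 CPM), mast cell (12.1) and platelet markers (10.7) summed highest. Macrophage (438), T cell (11.3), B cell (1.56) and eosinophil markers (10.6) summed lowest there. In that library 5 of the 8 mast cell and basophil markers had 0 counts. Kit had the highest mean CPM of that list over the 12 libraries.

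The treatments were also compared with each other. In the combination against anti-PD-1, 0 of 10 genes passed (0% of all genes in the edgeR test, 682 with an unadjusted p under 0.05, and 15 by DESeq2). Log2 differences were 0.12 ± 0.43 for S100a8, 0.17 ± 0.38 for S100a9, -0.10 ± 0.28 for Cxcr2 and -0.08 ± 0.37 for Csf3r. They were 1.08 ± 0.45 for Mmp9 and 0.97 ± 0.41 for Ltf, with unadjusted p of 0.0351 and 0.0400 and adjusted p of 0.997 for both (edgeR). Ltf and Camp had every combination library above every anti-PD-1 library, 2 of 10 genes, beside 14.2% of all genes without overlap (7.49% higher).

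Against mIFNalpha, Ltf rose in the combination by 2.19 ± 0.43 on the log2 scale (adjusted p = 0.0438), 1 of 10 genes, where 0.956% of all genes were called and 0.342% rose. This call held in 4 of 12 edgeR fits lacking 1 library, and its adjusted p reached 0.161 without combination replicate 2. The libraries whose removal ended it were untreated replicate 2, mIFNalpha replicates 2 and 3, anti-PD-1 replicates 1 and 2 and each combination library. All 10 genes were higher on average, with a median log2 difference of 1.5 beside 0.02 over all genes, and 7 of 10 had no overlap between libraries (36.8% of all genes, 20.3% higher). For anti-PD-1 against mIFNalpha, 0 of 10 passed (0.105% of all genes called, 0.0488% higher), with log2 differences of 1.43 ± 0.39 for S100a9 (adjusted p = 0.0859) and 1.1 ± 0.29 for Cxcr2 (adjusted p = 0.0851), and 5 of 10 had no overlap (21.9% of all genes, 12.4% higher). The interaction asked whether the combination departed from the sum of both single treatments on the log2 scale, and 0 of 10 genes passed (0% of all genes, 868 with an unadjusted p under 0.05 in edgeR). The smallest p-values were those of Cxcr2, with an interaction of -0.89 ± 0.41 on the log2 scale, and Mmp8, with -2.43 ± 1.18, both at an edgeR adjusted p of 0.799. Comparisons that share untreated or mIFNalpha libraries are not independent of each other.

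Genes most like each of the 10 were taken as the 3 other tested genes with the highest Pearson correlation of log2 CPM over the 12 libraries, which share depth and group differences. They numbered 21 different genes, with correlations between 0.93 and 0.99, and 11 of the 30 picks were in the neutrophil lists. For Ltf, Camp and Ngp the list held Mpo (0.956, 0.950 and 0.971) and Elane (0.952, 0.931 and 0.943). S100a8 and S100a9 were closest to Chil1 (0.960 for both) and Ctsg (0.956 and 0.960), and Mmp8 and Retnlg to Itgb2l, an integrin subunit gene (0.968 and 0.951). Csf3r was closest to Trpv2 (0.989), Vav1 (0.988) and Ikzf1 (0.988), and Cxcr2 to Tnfsf13b (0.972), Agap2 (0.972) and Chil1 (0.972). Mmp9 was closest to Klc1 (0.957), which is in none of the lists. With group means taken off, 4 of the 30 picks were in the neutrophil lists, among them Mpo for Ltf (0.958), Chil3 for Camp (0.960) and Asprv1 for Retnlg (0.967).

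In the interval of 1.195 Mb on chromosome 9 that holds Camp, Ngp and Ltf, 19 other genes were tested, of which 0 rose and 0 fell with anti-PD-1 or in the combination, with median log2 differences of 0.06 and 0.13. The highest belonged to Kif9, a kinesin gene, at 1.31 with anti-PD-1 and 1.14 in the combination. Camp and Ngp themselves did not pass in either comparison in the edgeR fit to all 12 libraries.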

How the data were processed

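Libraries of total RNA were made with standard Illumina protocols, per the labels' protocols. The submitters' processing notes name HISAT2 2.1.0, HTSeq and Cufflinks with the mm10 build; their order, the annotation and the strand setting were not stated there. The authors deposited a table of raw counts per gene and a table of FPKM values per gene for all 12 libraries, mapped here to groups by the sample names in the labels.

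The deposited counts were filtered (filterByExpr, minimum count 10), scaled by TMM and tested with edgeR 4.0.16 (R 4.3.3) in 1 quasi-likelihood fit over all 12 libraries with a mean per group. Benjamini-Hochberg adjustment covered all 14330 tested genes, and an adjusted p under 0.05 was called. Standard errors were taken from the log2 fold change and its F statistic. The deposited FPKM values gave levels between genes and, as log2(FPKM + 1) or log2(FPKM + 0.1), limma 3.58.1 alternatives. DESeq2 1.42.0 was another. The fit was tested on simulated data. Library totals of 31317989 to 38536732 counts limit genes near 3 counts per library, and SE and p cover the spread between libraries. No 2 columns were identical, and replicates differed by more than sampling noise.

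The 10 genes and the lists were chosen with earlier results of these data known. Named are the 10 genes; from each neutrophil or pathway list the genes that passed, at most 4 by smallest p; sums for cell type lists; and the 3 genes most correlated with each of the 10. Ly6g, Prtn3, Csf3, Chil3, Ptprc and Lyz2 were named after their values were seen. A gene that this rule names is not reported here. GENCODE M21 matched 20665 of 21878 symbols, and RefSeq promoters matched 9 of the 10 genes.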

Additional observations from a re-analysis of the deposited data

How the results depend on the processing

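All 10 genes stayed above untreated on average with anti-PD-1 and in the combination under every alternative run. With anti-PD-1, 4 of 10 were called (14.8% of all genes), against 0 in a fit to the 2 groups alone (0%) and 8 by DESeq2 (18.2%). With 1 library left out, between 0 and 9 were called (0.0344% to 20.9% of all genes). In the combination 7 were called (12.6% of all genes), 10 by DESeq2 (16.4%) and 10 in a fit to the 2 groups alone (27.2%). By limma 9 were called on log2(FPKM + 1) (8.72% of all genes) and 8 on log2(FPKM + 0.1) (9.42%). With 1 library left out, edgeR called between 0 and 9 (0.227% to 20.1% of all genes). Against mIFNalpha, 1 was called in the combination, beside 0.956% of all genes. The count was 3 in a fit to the 2 groups alone (8.09% of all genes) and 6 by DESeq2 (9.2%). It was 7 without mIFNalpha replicate 1 and anti-PD-1 replicate 3 (9.07%), and between 0 and 5 with 1 library left out (0% to 10%). For anti-PD-1 against mIFNalpha the count was 0 (0.105% of all genes), 5 by DESeq2 (9.1%) and between 0 and 2 with 1 library left out (0% to 4.9%). Over all genes, 2126 were called with anti-PD-1 and 1803 in the combination, against 3291 and 2979 by DESeq2, 947 and 996 by limma on log2(FPKM + 1), and 0 and 3789 in fits to the groups compared. Deviations of same-numbered libraries from their group means correlated above 0.1 in 8 of 18 pairs (range -0.30 to 0.50). The highest was for replicate 2 of anti-PD-1 and the combination. Differently numbered libraries were not compared, so whether the numbers mark pairs was not tested. The labels give no pairing, and the main fit did not use the numbers. With the replicate number as a block, 4 of the 10 genes were called with anti-PD-1 (16.7% of all genes) and 7 in the combination (15.2%). Against mIFNalpha, 1 was called in the combination (3.78%) and 0 with anti-PD-1 (1.03%). In the other comparisons 0 were called.

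Differences that were not called changed sign as follows, and the cause was not tested. Without mIFNalpha replicate 1 and anti-PD-1 replicate 3 together, mIFNalpha log2 differences from untreated were -0.41 for Ltf, -1.97 for Camp and -0.91 for Ngp. In the same fit, combination minus anti-PD-1 was 0.13 for Cxcr2, 0.55 for Csf3r and 0.21 for Mmp8, and the interaction was 0.14 for S100a8, 0.42 for S100a9, -0.36 for Mmp9, 0.55 for Retnlg and 2.17 for Ngp. Camp with mIFNalpha was -0.16 by log2(FPKM + 0.1). Csf3r in the combination minus anti-PD-1 was 0.0649 with the replicate block, 0.0341 by log2(FPKM + 1) with or without the filter and 0.0708 by log2(FPKM + 0.1). The Ngp interaction was 0.40 by log2(FPKM + 1) with or without the filter and 0.25 by log2(FPKM + 0.1). With 1 library left out, mIFNalpha log2 differences ran between -0.44 and 0.27 for Ltf, -2.01 and 1.28 for Camp and -0.94 and 1.67 for Ngp. Combination minus anti-PD-1 ran between -0.17 and 0.48 for S100a8, -0.12 and 0.55 for S100a9, -0.29 and 0.13 for Cxcr2, -0.37 and 0.55 for Csf3r and -0.96 and 0.21 for Mmp8. Combination minus mIFNalpha ran between -0.0677 and 1.55 for Mmp8, and anti-PD-1 minus mIFNalpha between -0.11 and 1.24 for Retnlg. The interaction ran between -0.68 and 0.0786 for S100a9, -0.77 and 0.12 for Csf3r, -0.34 and 0.45 for Mmp9, -1.11 and 0.12 for Retnlg, -0.0579 and 3.24 for Camp and -0.79 and 1.83 for Ngp. Named list genes that passed in the main fit had 808 values under alternatives. Of these, 598 kept their direction and call, 210 lost the call and 0 changed direction. Only genes already called were counted, so no call could be gained and the count is not independent support. Counts near 3 per library limit Camp, Ly6g and Ctsg.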
